A study of Mus musculus with 7 samples.

Results

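Of 46639 regions formed by merging the origin lists of untreated, aphidicolin-treated and CDC6-overexpressing mouse embryonic stem cells (mESCs), 1798 (3.86%) were in the untreated (WT) and CDC6 lists and not in the aphidicolin (APH) list. Lists were merged on chromosomes 1 to 19 and X wherever rows overlapped by at least 1 bp, and a region belonged to a list if it held a row of it. These 1798 regions are called members below. Because the lists themselves chose the members, everything measured in the same libraries describes them and is not a test of the choice. No test between conditions was run, since the libraries' own values chose the members. Values by library are given where they exist, and the 95% intervals are Wilson intervals that cover counting error only.

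Replication starts at origins, where the origin recognition complex, CDC6 and CDT1 load the MCM helicase in G1 phase and where a part of the loaded helicases fires in S phase. Aphidicolin inhibits the replicative DNA polymerases and slows forks, and cells under such stress are known to fire origins that otherwise stay dormant. In mESCs many origins lie at promoters rich in CpG dinucleotides, and G-quadruplex motifs, runs of guanines that can fold into a stacked structure, are often found at them.

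Origins were mapped by sequencing short nascent strands, the RNA-primed DNA that λ-exonuclease leaves undigested. With 2 libraries per condition, WT stands for no treatment, APH for 2.5 h in 0.5 µM aphidicolin, and CDC6 for induction of a CDC6 transgene by 30 h of doxycycline at 1 µg/ml. WT replicate 2 and the APH and CDC6 libraries came from TetO-CDC6 mESCs, a line derived from a transgenic mouse, so APH cells and WT replicate 2 carried the transgene uninduced, while WT replicate 1 came from another mESC line, grown in another medium and submitted earlier. An Input sample completed the 7 samples, and no list of it was used here; the labels do not say whether replicates were separate cultures, and DNA libraries give no check of CDC6 levels or of the cell type.

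Read numbers are unknown, so the numbers of peaks limit the precision. The WT, APH and CDC6 lists held 20178, 31653 and 31384 origins, and the libraries held 71435 to 94747 MACS peaks, the peaks called in each library by MACS2. WT replicate 1 stood apart from the others in having 8.26% of its peaks on chromosome 8, against 4.86% to 5.53%. A further list per library, called the second list here, carried labels that went against the condition lists. All 20178 WT rows were rows of the second list labelled APH 1, all 31653 APH rows were rows of that labelled CDC6 1, and all 31384 CDC6 rows were rows of that labelled CDC6 2. MACS peaks and condition lists were therefore used as labelled, the second lists served in 1 alternative, and no library was moved to another group.

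Promoter sequences are shown first because many members lay at gene starts and because the share of promoters with a G-quadruplex motif differed between classes of origins. The 5 genes ranked highest by peak strength with their start inside a member were Hnrnpm, Ap4b1, Dclre1b, Ro60 and Uchl5, and the next 2 members of that ranking with a printable promoter were at Mms22l and Ptchd3. Sequences are those of RefSeq on GRCm38.p6 (mm10), taken from the 250 bases before the start and cut to what lies in no annotated gene. Capitals mark runs of at least 3 G or C, the building blocks of a G-quadruplex on either strand. Ap4b1 and Dclre1b point away from each other and share 1 stretch, as do Uchl5 and Ro60. The stretches were chr17:33685459-33685691 on the minus strand and chr3:103809388-103809510, chr1:143777064-143777233, chr4:24496201-24496450 and chr11:121829968-121830217 on the plus strand.
Hnrnpm: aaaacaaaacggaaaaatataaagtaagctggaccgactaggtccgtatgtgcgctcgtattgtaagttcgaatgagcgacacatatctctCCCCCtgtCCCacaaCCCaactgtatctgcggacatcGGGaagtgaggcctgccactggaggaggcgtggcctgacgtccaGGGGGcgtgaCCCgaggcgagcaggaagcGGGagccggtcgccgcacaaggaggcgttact
Ap4b1/Dclre1b: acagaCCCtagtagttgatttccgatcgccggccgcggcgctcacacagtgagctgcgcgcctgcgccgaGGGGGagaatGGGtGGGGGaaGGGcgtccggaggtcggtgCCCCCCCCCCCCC
Uchl5/Ro60: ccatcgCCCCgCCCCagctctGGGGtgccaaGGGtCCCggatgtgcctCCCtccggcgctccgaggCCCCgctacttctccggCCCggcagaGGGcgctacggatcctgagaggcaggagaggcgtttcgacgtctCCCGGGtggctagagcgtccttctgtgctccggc
Mms22l: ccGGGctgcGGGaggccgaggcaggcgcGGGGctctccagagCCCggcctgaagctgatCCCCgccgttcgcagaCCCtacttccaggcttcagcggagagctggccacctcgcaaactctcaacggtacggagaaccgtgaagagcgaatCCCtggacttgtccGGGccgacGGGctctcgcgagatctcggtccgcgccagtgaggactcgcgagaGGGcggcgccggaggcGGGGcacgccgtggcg
Ptchd3: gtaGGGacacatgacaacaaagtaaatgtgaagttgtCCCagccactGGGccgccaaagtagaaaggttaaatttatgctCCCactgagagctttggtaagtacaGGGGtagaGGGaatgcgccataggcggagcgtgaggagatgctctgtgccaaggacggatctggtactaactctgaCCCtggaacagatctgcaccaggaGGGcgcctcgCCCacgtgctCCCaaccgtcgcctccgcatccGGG
The Ap4b1/Dclre1b stretch held a G-quadruplex motif, defined as 4 runs of at least 3 G spaced by 1 to 7 bases on either strand, and the other 4 did not. GC content was 57.1% before Hnrnpm and 56.0% before Ptchd3, against 70.8% to 71.5% in the other 3.

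For comparison, the strongest region in the WT and APH lists but not the CDC6 list, and the strongest in all 3 lists, among regions that hold a gene's start, are shown by their promoters, Efna2 at chr10:80179232-80179481 and Brpf3 at chr17:28800876-28801125, both on the plus strand. Efna2 encodes an ephrin ligand and Brpf3 a subunit of a histone acetyltransferase complex. Ranking was by the mean over 6 libraries, and the start had to lie in the region with all 250 bases outside genes.
Efna2: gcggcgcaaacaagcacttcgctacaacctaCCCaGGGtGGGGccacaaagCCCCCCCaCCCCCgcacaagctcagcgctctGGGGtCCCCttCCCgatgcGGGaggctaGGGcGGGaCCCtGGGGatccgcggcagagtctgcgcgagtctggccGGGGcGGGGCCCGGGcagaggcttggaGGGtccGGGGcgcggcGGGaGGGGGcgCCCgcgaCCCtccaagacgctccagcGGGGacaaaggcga
Brpf3: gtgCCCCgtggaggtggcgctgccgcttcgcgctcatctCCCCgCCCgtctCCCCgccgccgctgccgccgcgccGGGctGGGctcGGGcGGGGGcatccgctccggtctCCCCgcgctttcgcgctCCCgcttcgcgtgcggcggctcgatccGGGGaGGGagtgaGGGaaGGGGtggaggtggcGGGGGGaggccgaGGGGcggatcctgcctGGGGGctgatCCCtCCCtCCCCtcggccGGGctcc
Both stretches held a G-quadruplex motif, with 88 and 78 bases in runs out of 250. Of the members' stretches, Mms22l had 36 and Ptchd3 34 of 250, Hnrnpm 25 of 233, Uchl5/Ro60 37 of 170 and Ap4b1/Dclre1b 32 of 123.

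The first question was how completely the members lacked a signal in the APH libraries. Most did not lack it. A MACS peak of at least 1 APH library lay at 1660 of the 1798 members (92.3%, 95% interval 91.0% to 93.5%), and peaks of both lay at 1210 (67.3%, 65.1% to 69.4%). Over all merged regions, which include those chosen by an APH origin, the shares were 90.2% and 81.5%, and over the 15067 regions without an APH origin they were 69.6% and 42.7%. Members thus had APH peaks more often than regions outside the APH list did in general, and these values share the libraries of the rule. The 138 members with no APH peak were 7.68% (6.53% to 8.998%), against 9.81% of all regions and 30.4% of those without an APH origin.

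Replicates of the APH condition differed in this respect. APH 1 had a peak at 1286 members (71.5%) and APH 2 at 1584 (88.1%), and 76 members had a peak in APH 1 alone against 374 in APH 2 alone. WT 1 had a peak at 99.8% of members, CDC6 1 at 99.9%, and WT 2 and CDC6 2 at all 1798. Regions of the WT and APH lists without a CDC6 origin mirrored this, with peaks at 78.3% in CDC6 1 and 69.3% in CDC6 2. Requiring a −log10 q of at least 2 moved the members with an APH peak to 84.7%, and the share with both to 49.3%.

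**Figure D1:**
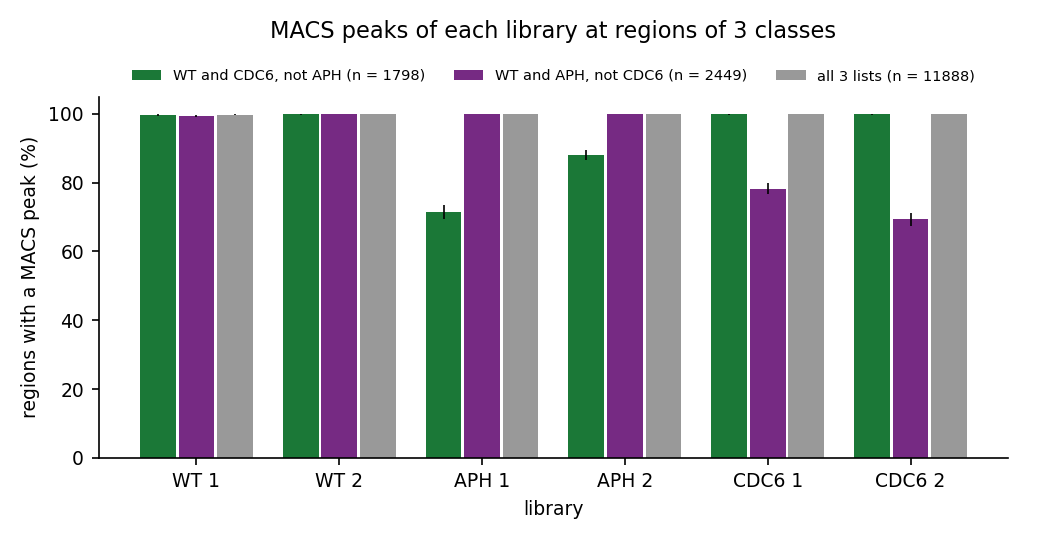
Share of regions with a MACS peak in each of the 6 libraries (percent) for the members and for 2 comparison classes. Bars are shares with 95% Wilson intervals. Members fall below the other classes in APH 1 (71.5%) and APH 2 (88.1%) and reach at least 99.8% elsewhere.

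The APH peaks at members were not extensions of listed APH origins in most cases. Of members with a peak in APH 1, the peak also touched an APH origin in 99 of 1286 (7.70%), and in APH 2 in 120 of 1584 (7.58%). The median width of the widest such peak was 1070.5 bp in APH 1 and 1215.5 bp in APH 2. Peaks were centred on the members in every library. At the midpoint, 66.7% of members lay under a peak in APH 1 and 84.6% in APH 2, against 97.2% to 98.4% in WT and CDC6 libraries. At 3 kb downstream on the genome's plus strand, the shares were 7.56% to 11.0% in the 6 libraries.

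**Figure D2:**
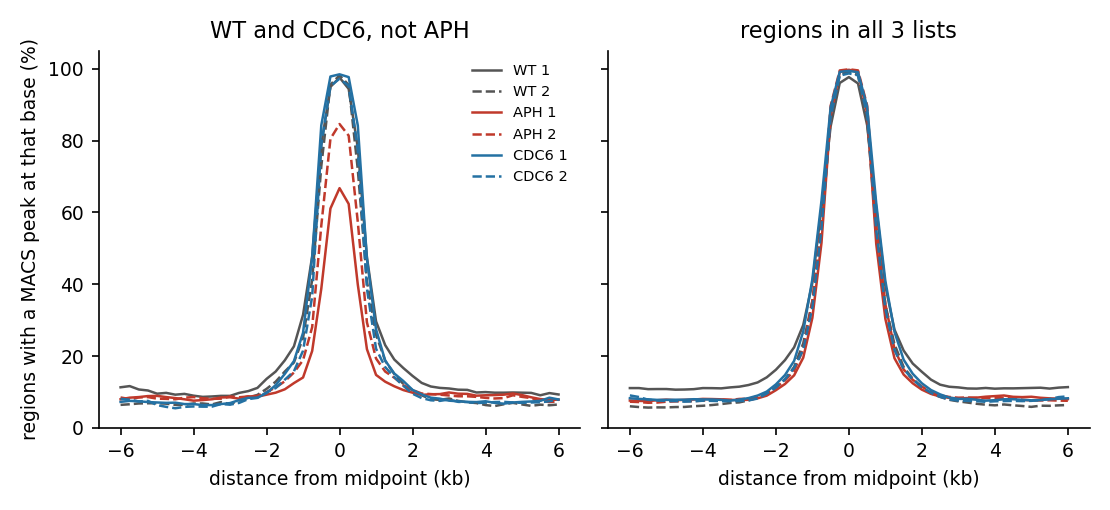
Share of regions with a MACS peak at each distance from the region's midpoint (kb, in steps of 250 bp), by library, for members (left) and regions in all 3 lists (right). The APH 1 and APH 2 curves peak at 66.7% and 84.6% for members and at 99.7% and 99.8% for regions in all 3 lists.

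Members were also weaker peaks than the regions in all 3 lists. Strength is given as the percentile rank, by −log10 q, of the strongest peak at a region within its own library, where 100 is the strongest. Lists of unequal length have unequal ranks, so ranks describe a place within 1 library. Where members had a peak, the median ranks were 78.4 and 71.4 in WT replicates 1 and 2, 43.1 and 60.9 under APH, and 79.3 and 76.5 in CDC6. In the regions of all 3 lists the 6 medians lay between 88.4 and 91.0, so members ranked below those regions in the WT and CDC6 libraries too. The ratio of the second to the first deposited score, which is at least 1.5 in every listed row, had a median of 2.63 in the WT list and 3.49 in the CDC6 list at members, and of 4.50 and 6.05 at regions in all 3 lists. In the WT list the ratio had a median of 2.55 at the WT and APH class.

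At the 1207 members with a peak in all 6 libraries, the authors' fold over the control had medians of 3.32 and 2.74 in WT, 2.49 and 2.75 under APH, and 3.30 and 3.34 in CDC6, replicate 1 first. APH 2 and WT 2 thus had nearly equal median folds there. A fold of at least 4 was reached by 1.56% of all members in WT 2, 1.72% in APH 1 and 3.34% in APH 2, and by 19.4%, 15.7% and 17.4% in WT 1, CDC6 1 and CDC6 2.

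Among members within 1 kb of a gene's end, the 8 with the highest mean rank over the WT and CDC6 libraries are given here. The strongest of these, at chr17:33684393-33686287, held the start of Hnrnpm, which encodes a splicing factor, and reached into Marchf2, a membrane-bound ubiquitin ligase. Its folds were 4.94 and 4.49 in the WT libraries, 3.16 and 4.39 in the APH libraries and 6.10 and 7.31 in the CDC6 libraries, with replicate 1 first here and below. APH 1 was lowest and the CDC6 libraries highest, and APH 2 lay just below WT 2. At chr3:103808763-103810119 the member held the head-to-head starts of Ap4b1, a subunit of the AP-4 vesicle adaptor, and Dclre1b, the nuclease Apollo that protects telomeres. There the folds were 6.29 and 3.70 in the WT libraries, 3.23 and 3.82 in the APH libraries and 5.66 and 6.83 in the CDC6 libraries. The WT replicates lay on either side of APH 2, so the WT and APH values overlapped.

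At chr1:143776514-143778366 lay the starts of Ro60, an RNA-binding protein of Ro particles, and Uchl5, a deubiquitinase of the proteasome. Folds there were 7.18 and 4.62 in the WT libraries, 2.57 and 3.52 in the APH libraries and 5.13 and 4.38 in the CDC6 libraries, with both APH values below all others. Mms22l, which acts in the repair of stalled forks, had its start in the member at chr4:24495929-24497155. Its folds were 5.52 and 3.50 in WT, 2.22 and 3.34 under APH and 6.45 and 5.93 in CDC6, again with both APH values lowest. In APH 1 its peak stood at rank 13.3, against 79.1 in APH 2 and 90.7 to 96.8 in the other 4 libraries. Ptchd3, Arl2bp and the head-to-head pair Pi4ka, a lipid kinase, and Snap29, a membrane fusion protein, completed the group with APH 1 folds of 2.35, 2.87 and 2.67 and APH 2 folds of 4.08, 3.82 and 3.81. At Ptchd3 the APH 2 fold was above that of WT 2 (3.73), so the groups overlapped. Of the 7 members of this group with APH peaks, 5 had both APH folds below the other 4 values; all 8 had been picked for high ranks in those 4 libraries.

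The 6 members at gene ends with no APH peak and the highest mean rank over the WT and CDC6 libraries come next. Gm52051 was also among the 8 above, and the other 5 ranked below those 8 by the way they were picked. Near Gm52051, a predicted gene, the member at chr13:98923599-98924373 had folds of 5.46 in WT 1, 4.13 in WT 2, 5.10 in CDC6 1 and 4.37 in CDC6 2 and no peak in APH 1 or APH 2, yet an APH origin lay 1193 bp away. The other 5 had folds of 2.40 to 3.96 in the WT and CDC6 libraries. They lay at Ctsr, a placental cathepsin, at the start of Ccp110, which caps centrioles, at Acbd7 and the start of Rpp38, a subunit of RNase P, at Xrra1, and at 3110040N11Rik. Ccp110, for example, had folds of 3.46, 2.51, 2.93 and 3.31 in WT 1, WT 2, CDC6 1 and CDC6 2. Outside genes, the member at chr1:17520248-17521325 also had no APH peak, with folds of 5.34, 3.76, 6.12 and 5.98 in the same 4 libraries.

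**Figure D3:**
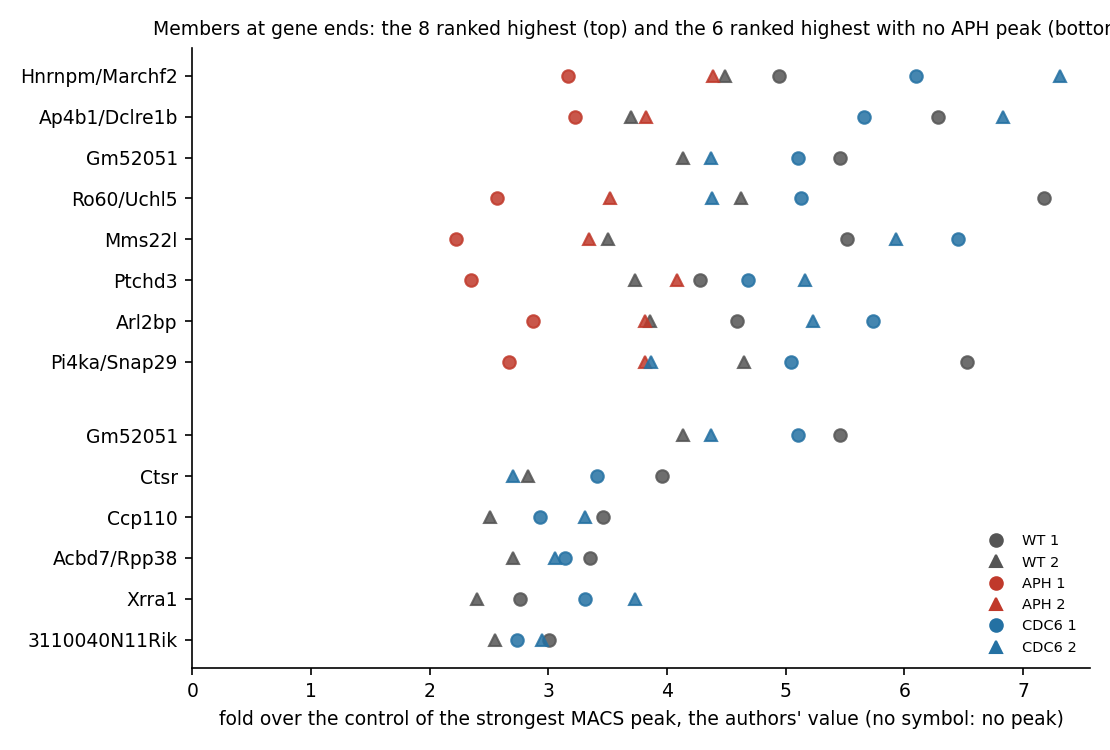
The authors' fold over the control of the strongest MACS peak at 14 entries (at gene ends, the 8 members ranked highest over the WT and CDC6 libraries and the 6 with no APH peak, Gm52051 being in both), by library; circles are replicate 1 and triangles replicate 2. APH 1 is the lowest symbol in each of the 7 upper rows that have APH peaks, and APH 2 lies above WT 2 in 2 of them, Ap4b1/Dclre1b and Ptchd3.

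At the other end, some members were among the strong peaks of the APH libraries and still absent from the APH list. The member at an end of Pax2, a paired-box regulator of kidney and eye development, had ranks of 92.9 in APH 1 and 93.2 in APH 2, against 97.6 and 94.97 in WT and 90.6 and 91.8 in CDC6, and lay 624 bp from an APH origin. Prmt1, an arginine methyltransferase, had higher ranks in APH 1 (91.4) and APH 2 (90.4) than in WT 2 (74.7), CDC6 1 (76.3) and CDC6 2 (78.0), with an APH origin 1002 bp away. Gm45915 and 2 members at Gipc3 and Tbxa2r made up the rest of the 5 strongest in APH, and the 2 members at Gipc3 shared 1 peak in each APH library. The strongest member inside a gene away from its ends, in Yaf2, a Polycomb component, had ranks of 96.0 and 95.2 in APH, and an APH origin lay 730 bp away. Members in Hsp90ab1, a heat-shock chaperone, and Bbs9, a ciliary protein, had ranks of 87.7 and 93.4 and of 85.0 and 92.2 in APH 1 and APH 2. An APH origin lay 989 bp from the member in Hsp90ab1 and 1463 bp from that at Gm45915. It lay 13141 and 12814 bp from the members at Gipc3 and 129510 bp from that in Bbs9. Whether the APH peak of each named member also touched a listed APH origin is not given here.

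Over all members, closeness to a listed APH origin was near that of other regions without one. The nearest APH origin lay at a median of 24869 bp (quartiles 10028 and 51096 bp). For regions in the WT list alone the median was 27352 bp, and for those in the CDC6 list alone 20904 bp. An APH origin lay within 10 kb for 448 members (24.9%), against 27.6% of all regions without an APH origin. It lay within 1 kb for 52 members (2.89%), a count given without a share over other regions. Just inside the rule were the members at Gdf9 and Uqcrq (126 bp from an APH origin), in Tenm2 (186 bp) and in 1700013H16Rik (187 bp). Just outside it, by the smallest overlap with an APH origin, were a region between genes on chromosome 2 (337 bp), 1 at Alkbh4 and Lrwd1 (373 bp) and 1 in Rbfox3 (388 bp). All 6 of these regions had peaks in both APH libraries.

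Gene position was not used by the rule. A gene end is used here for the 1 kb on each side of the start or the end of a protein-coding gene. Members lay at such ends in 609 cases (33.9%, 31.7% to 36.1%), against 19.8% of all merged regions and 16.4% of those without an APH origin. Regions in the WT and APH lists alone, the mirror class for CDC6, did so in 200 of 2449 cases (8.17%, 7.15% to 9.32%), and regions in all 3 lists in 45.3% (44.4% to 46.2%). The share was 16.8% in the CDC6 list alone, 9.11% in APH and CDC6, 7.20% in WT alone and 4.70% in APH alone. Members and the mirror class differ in their CDC6 listing as well as in their APH listing. With the APH and CDC6 lists shortened to the 20178 regions of the WT list, keeping the highest second deposited scores, the mirror class had 14.6%, while members had 34.0%. A further 562 members (31.3%) lay inside genes and 627 (34.9%) outside. Transcription starts lay inside 426 members (23.7%, 21.8% to 25.7%), against 13.0% of all regions, 3.14% of the WT and APH class and 35.3% of regions in all 3 lists.

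Members were also wider, with a median of 881 bp (quartiles 723 and 1146 bp) against 640 bp in the WT and APH class and 1168 bp in regions of all 3 lists, and wide regions meet gene ends more often. Within widths of up to 600 bp, above that to 1000 bp, and over 1000 bp, the gene end shares were 22.1%, 29.6% and 42.6% for members and 5.26%, 8.45% and 17.8% for the WT and APH class, so members were higher at each width. Regions in all 3 lists had 8.14%, 18.02% and 62.8%, so members were above them in both narrower ranges and below them among wide regions. Across 4 ranges of WT 2 rank, members ranged from 31.4% to 35.7% and the mirror class from 5.57% to 11.2%. Regions in all 3 lists had 28.2%, 33.05%, 41.0% and 55.4% from the lowest range up. Members were thus slightly above them up to rank 75 and below them at higher ranks. Ranks in the other libraries were not used for this split.

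The share at gene ends was higher where APH libraries had peaks. It was 20.3% (14.4% to 27.8%) in the 138 members with no APH peak, 26.4% (22.6% to 30.7%) in the 450 with 1 and 38.2% (35.5% to 40.9%) in the 1210 with 2. Median widths of these groups were 794.5, 821 and 921 bp. The 138 also had lower median ranks than all members, 60.4 against 78.4 in WT 1 and 61.6 against 71.4 in WT 2. In CDC6 1 and CDC6 2 they had 63.6 against 79.3 and 61.3 against 76.5. The part of width and rank in the order was not tested. Libraries differed too in how strong gene end members were. The median rank at gene ends and outside genes was 89.1 and 64.5 in WT 1, 83.9 and 68.3 in CDC6 1, 81.8 and 64.8 in CDC6 2 and 68.7 and 51.9 in APH 2. In WT 2 and APH 1 it was 70.6 and 73.6, and 43.1 and 45.4, so these libraries showed no higher rank at gene ends. WT 1 is the library of the other line, and the lists were therefore also rebuilt without it.

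Rebuilt from MACS peaks found in both libraries of a condition, the WT and CDC6 lists shared 3636 regions without an APH region, and 22.5% of them lay at gene ends, against 4.65% of the WT and APH class. Leaving out a library changed which regions qualified. That condition then took every MACS peak of its remaining library, while the other conditions still needed peaks in both libraries. The rule for that condition was thus looser, so a change there is not that of the library alone. The gene end share was 15.2% without WT 1 and 23.7% without WT 2, 16.6% and 25.6% without APH 1 and APH 2, and 19.2% and 17.1% without CDC6 1 and CDC6 2. The WT and APH class had 2.59% to 5.43% in these 6 settings, so the order of the classes held in each. The number of such regions ran from 2096 without APH 1 to 10170 without WT 2, with 5762 without WT 1, 2923 without APH 2, and 4570 and 5733 without CDC6 1 and CDC6 2. With the second lists as labelled, 4747 regions qualified and 15.0% lay at gene ends, against 9.52%. Shares over all regions of these settings were not computed. Without WT 1, APH 1, CDC6 1 or CDC6 2, and with the second lists, the members' share lay below the 19.8% of the main merged regions. It lay above that value on the rebuilt lists and without WT 2 or APH 2. These settings formed other regions, so the 19.8% is not their background and neither order shows an excess or a lack.

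**Figure D4:**
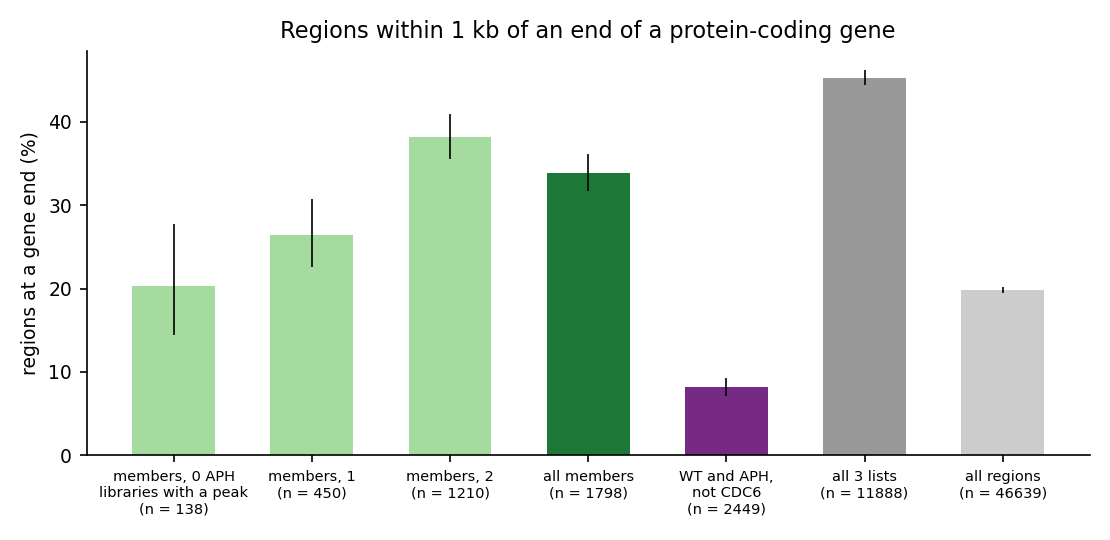
Share of regions at a gene end (percent) for members split by the number of APH libraries with a MACS peak, for all members and for comparison classes. Bars are shares with 95% Wilson intervals. Members rise from 20.3% with no APH peak to 38.2% with 2, and the WT and APH class stands at 8.17%.

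Where a promoter lay near, the members' midpoints lay mostly just downstream of the start. A start lay within 1 kb of 499 members and inside 426 of them, so most of these spanned the start. Of 514 members with their midpoint within 2 kb of a start, 363 (70.6%, 66.5% to 74.4%) had the midpoint on the downstream side and 434 (84.4%) lay within 500 bp. The median over all 514 was 143 bp downstream. Regions in all 3 lists had a median of 168.5 bp and 74.9% downstream.

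Members touched the ends of 715 protein-coding genes, 3.31% of 21631. An APH origin lay in the same gene or within 1 kb of it for 265 of them (37.1%), and 450 (62.9%) had none. Of all protein-coding genes, 48.0% had an APH origin in that range. The rule bars an APH origin at the member itself, so the 37.1% and the 48.0% are not like for like. Lists of genes that make the replication machinery held 2 or 3 such genes each. At 29 licensing and firing genes there were 2 (6.90%, beside the 3.31% of all genes), Orc3 and Gins1. Orc3, a subunit of the origin recognition complex, and Rars2 had their starts in a member with folds of 2.60 in WT 1, 2.56 in WT 2, 2.50 in CDC6 1 and 2.67 in CDC6 2 and no peak in either APH library. All 4 values lay close together, and no APH origin lay within 62674 bp. At Gins1, a part of the CMG helicase, the member lay at an end and had APH folds of 2.55 and 2.89.

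Of 26 genes of replicative polymerases and fork factors 2 (7.69%) had a member at an end, Pole and Pola1. Pola1, the catalytic subunit of polymerase α, which aphidicolin inhibits, had its start in a member with folds of 3.76, 2.39, 2.71, 3.15 and 3.18 in WT 1, WT 2, APH 2, CDC6 1 and CDC6 2 and no peak in APH 1. The APH 2 value lay between the WT values. Of 21 checkpoint and fork protection genes 3 (14.3%) had one, Brca2, Hltf and Zranb3. Brca2, which protects stalled forks, had its start in a member with folds of 4.33, 2.33, 2.43, 3.34 and 3.82 in WT 1, WT 2, APH 2, CDC6 1 and CDC6 2 and no APH 1 peak.

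Housekeeping and cell identity lists are given the same way. Members lay at the ends of 6 of 82 cytosolic ribosomal protein genes (7.32%), with Rpl27a, Rpl4 and Rps21 ranked highest. At Rpl27a, a large-subunit protein, folds were 4.73 and 3.21 in WT, 2.73 and 2.65 under APH and 4.58 and 4.28 in CDC6, with both APH values below the rest. Rpl4 had no APH 1 peak and an APH 2 fold of 2.56, below its WT folds of 3.82 and 2.69. At Rps21, a small-subunit protein, the APH 2 fold of 2.74 was above that of WT 2 (2.71), so the groups overlapped. Mitochondrial ribosomal protein genes gave 5 of 75 (6.67%), proteasome genes 2 of 39 (5.13%) and histone genes 2 of 62 (3.23%), H3c1 and H4c1 of 1 member. Pou5f1, the pluripotency factor Oct4, had its start in a member with folds of 3.83 and 3.34 in WT, 2.26 and 3.62 under APH and 3.99 and 4.73 in CDC6. APH 2 lay between the WT values there and APH 1 below them, and Tbx3 was the other of 22 pluripotency genes with a member (9.09%).

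Developmental homeobox, paired-box and T-box regulators gave 8 of 121 (6.61%), with Pax2, Nkx3-2 and Hoxb9 strongest, and Sox, Fox, Gata and Klf factors 3 of 86 (3.49%), Sox5, Foxa2 and Sox6. Regions in all 3 lists lay at the ends of 59 and 56 of these genes, and of 27.6% of all protein-coding genes. Cell cycle genes gave 2 of 31 (6.45%), E2f7 and Cdk1, and Polycomb and chromatin regulators 1 of 30 (3.33%), Hdac2. Zfp genes, the zinc finger family, gave 10 of 397 (2.52%), olfactory receptors 2 of 1106 (0.181%), vomeronasal receptors 1 of 353 (0.283%), and clustered protocadherins 0 of 57 and DNA methylation genes 0 of 9. With so few genes per list these shares are given beside the 3.31% as counts, and no list was called different from it. Genes without an APH origin in the gene or within 1 kb, 62.9% of the 715, were 3 of the 3 checkpoint and fork protection genes with a member, 6 of the 6 cytosolic ribosomal, 2 of the 5 mitochondrial ribosomal, 3 of the 8 developmental and 6 of the 10 Zfp genes.

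Promoter sequence was compared over RefSeq windows of 300 bases, 250 before and 50 after a start, whose start lay within 1 kb of a region. Members had 632 such windows at 546 genes, and 577 of the 715 genes with a member at an end (80.7%) had an entry. Median GC content was 61.8% at members, 60.7% in the WT and APH class (166 windows), 67.0% at regions in all 3 lists and 56.7% over all 21045 promoters. The observed over expected CpG ratio had a median of 0.792 at members, against 0.694, 0.840 and 0.574, and it exceeded 0.6 in 78.2% of members' windows (74.8% to 81.2%), 62.0% (54.5% to 69.1%), 84.5% and 48.1%. Members' promoters thus lay on the CpG-rich side, between the mirror class and the regions in all lists.

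The G-quadruplex motif was less frequent at members than at classes of regions that held an APH origin. It was in 161 of 632 windows (25.5%, 22.2% to 29.0%), against 67 of 166 (40.4%, 33.2% to 48.0%) in the WT and APH class, 40.6% (39.3% to 41.8%) at regions in all 3 lists and 22.3% of all promoters. In the classes with an APH origin and no WT origin it was in 39.6% (APH and CDC6) and 38.5% (APH alone), and in those without an APH origin in 21.3% (WT alone) and 25.0% (CDC6 alone). At GC contents of up to 55, 55 to 60, 60 to 65, 65 to 70 and over 70%, members had 10.5%, 13.1%, 31.5%, 34.8% and 41.3%, and the WT and APH class 15.4%, 33.3%, 43.4%, 47.8% and 88.9%, from 18 to 53 windows each. The intervals overlapped in the first 4 ranges. Against regions in all 3 lists, with 10.0%, 20.4%, 32.4%, 43.1% and 58.0%, members were lower in 4 of the 5. This motif was singled out after 7 motifs were seen, and the difference was not tested. On rebuilt lists the shares were 15.9% and 20.6%, members below the WT and APH class. Without WT 1, with every WT 2 peak taken as the WT list, the order turned, at 15.7% and 13.9%. Without WT 2, APH 1, APH 2, CDC6 1 and CDC6 2 members had 20.4%, 14.5%, 15.5%, 15.8% and 16.4%, against 23.3%, 20.7%, 19.1%, 20.4% and 22.2%. On rebuilt lists and without each library, all shares of both classes but that 23.3% lay below the 22.3% of all promoters. The higher levels of the main lists were thus not kept there. The second lists as labelled gave 42.0% and 37.1%, also in the other order.

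Of the other 6 motifs, searched on both strands, the ETS core CCGGAAG, a site of ETS factors, was in 142 windows (22.5%, 19.4% to 25.9%), against 15.7% (10.9% to 22.0%), 14.4% (13.5% to 15.3%) and 11.7% (11.3% to 12.1%) in the same order of classes. The interval at members overlapped that of the WT and APH class and not that of regions in all 3 lists. It was in 42 of 221 windows in WT alone, the share closest to that of members among the other classes. The share was 15.9% in CDC6 alone, 10.9% in APH and CDC6 and 8.68% in APH alone. On rebuilt lists and without each library in turn it was in 18.3% to 25.2% of members' windows, and in 12.5% with the second lists as labelled. The GC box GGGCGG, a site of Sp1, was in 66.8% of members' windows (all promoters 46.7%), the NRF1 site in 12.7% (6.44%), the E-box CACGTG in 11.7% (7.91%), the CCAAT box in 37.8% (38.5%) and TATAAA in 7.28% (12.7%). For each of these 5 the interval at members overlapped that of the WT and APH class. The GC box and the G-quadruplex motif can share bases. A window near regions of several classes counts in each, and a match describes letters and not binding.

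**Figure D5:**
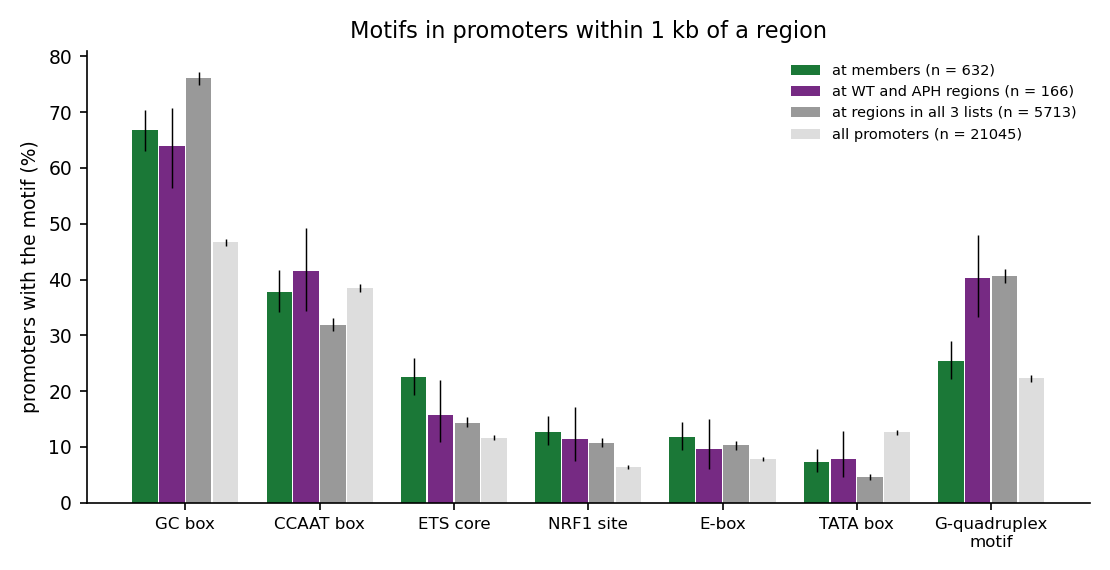
Share of 300-base promoter windows with each of 7 motifs on either strand (percent), for windows within 1 kb of members, of 2 comparison classes, and for all promoters. Bars are shares with 95% Wilson intervals. Members stand above the other sets shown, which leave out WT alone, for the ETS core (22.5%). They stand below both origin classes shown for the G-quadruplex motif (25.5%).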

How the data were processed

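Tools named in the submitters' processing notes are MACS2 2.0.10, BWA 0.7.10, bedtools 2.23.0, Picard 1.107, SAMtools 0.1.19 and FastQC, and builds are mm9, mm10 and GRCm38. For the role and settings of each, the sources used here state nothing. The deposited MACS lists give the authors' score, fold ratio over the control, −log10 p-value and −log10 q-value per peak, with widths of at least 400 bp and q-values up to 0.1. The deposited condition and second lists give 2 scores per region of unstated meaning, and no source says how libraries were combined into condition lists.

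Lists were merged and overlapped in Python with numpy and pandas, and these steps were tested on simulated lists. Gene positions and promoters came from RefSeq tables of GRCm38.p6. The members and the gene and motif lists were chosen with earlier results of these data known. No genome sequence was used, so sequence outside promoter windows was not read. Named members, chromosome 18 left out, are those at gene ends: the 8 with the highest mean rank over the 4 WT and CDC6 libraries, the 6 highest without an APH peak, the 5 highest in APH and up to 3 per gene list; also 3 inside and 3 outside genes, 3 on each side of the rule, and genes with at least 3 members. Promoters are those of the first 5 genes with a start inside a member. The next 2 members and 2 comparison promoters were added after the data were seen, as was the limit of 100 printed bases outside genes. Shares carry 95% Wilson intervals. No test across samples was run, because the same libraries chose the members. Alternatives changed the overlap, the lists, the thresholds, the windows and the libraries.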

Additional observations from a re-analysis of the deposited data

How the results depend on the processing

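No paired analysis was possible because the shares come from no test: the libraries' own values chose the members. Depth is unknown, so a missing peak or origin cannot be told from a shallow library. The shares and counts kept their values within the counting interval (counts within 1.5 times) when rows had to overlap by 50%, when members within 1 kb of an APH origin, chromosome 8 or chromosome X were left out, and, for the midpoint distance and the promoter windows, in each variant run. Alternatives for the G-quadruplex and ETS shares and for the WT and APH class were chosen after seeing the data.

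With lists of equal length, the WT and APH class had 14.6% at gene ends, and 97.4% of members had an APH peak, 84.4% had both and 2.56% neither. With the second lists as labelled there were 4747 members, of which 15.0% lay at gene ends, 99.3% had an APH peak, 95.5% both and 0.695% neither, and the G-quadruplex share was 42.0%. On lists rebuilt from MACS peaks there were 3636 members, with 22.5% at gene ends and a G-quadruplex share of 15.9%. Without each library in turn, that condition taking all peaks of its other library, these ran from 2096 to 10170 members. The shares ran from 15.2% to 25.6% and from 14.5% to 20.4%. Without APH 1 or APH 2, the members with an APH peak were 88.1% or 71.5% and those without 11.9% or 28.5%. The shares with an APH peak, both and neither were 84.7%, 49.3% and 15.3% at a −log10 q of at least 2, 3.89%, 1.17% and 96.1% at a fold of at least 4, and 90.9%, 63.8% and 9.12% at an overlap of 50%. The gene end share was 31.6% with 500 bp, 37.8% with 2 kb and 39.5% with all annotated genes. The width by the longest single row was 824.5 bp. The order of members above the WT and APH class at gene ends held in every setting run for both, and the G-quadruplex order turned without WT 1 and with the second lists. The gene end share over all regions was computed for the main setting only.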

Other observations

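Members lay in 1208 bins of 1 Mb, of which 6 held at least 5 members. Bins were not counted for other regions, so whether members are more spread or more clustered was not tested. Chromosome 8 held 82 members (4.56%, against 5.41% of all merged regions) and chromosome X 44 (2.45%, against 3.03%). Agbl4, a carboxypeptidase gene of 1266676 bp, and Osbp2, an oxysterol-binding protein gene of 160269 bp, each had 3 members in the gene or within 1 kb. In Agbl4, the 3 members had WT 1 folds of 2.41, 2.43 and 2.77 and WT 2 folds of 3.397, 3.33 and 2.31. Their APH folds were 2.19 to 3.08, and 5 of the 6 lay between both WT folds of the same member. At Osbp2, 2 of the 3 members had no peak in APH 1, and all 3 had a peak in APH 2.

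The promoters of the 138 members with no APH peak were few, at 25 windows. The G-quadruplex motif was in 16.0% of them (6.40% to 34.6%), in 20.5% (14.2% to 28.7%) of 117 windows at members with 1 APH library and in 27.4% (23.6% to 31.5%) of 493 at members with 2. The intervals overlapped. The ETS core was in 24.0%, 23.9% and 22.3% of the same windows.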
